A study of Arabidopsis thaliana with 12 samples.

Results

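Seedlings of Arabidopsis thaliana that carry SvGRP, taken from Sporobolus virginicus, a grass that tolerates salt (written S. virginics in the labels), and encoding a glycine-rich RNA-binding protein, were compared with wild-type Col-0 seedlings after 24 h on 150 mM NaCl. The comparison takes 6 of the 12 arrays in the series: SvGRP at 150 mM NaCl, replicates 1 to 3, minus wild type at 150 mM NaCl, replicates 1 to 3. The other 6 arrays hold the same genotypes at 0 mM NaCl and serve as the background of the genotype without salt. They also enter the estimate of each gene's spread. In every group whole seedlings were moved to the plates at 5 days and taken 24 h later, at 6 days. The promoter that drives SvGRP, the number of transformed lines, the hour of harvest and whether the replicates were grown separately are not given in the sources used here. So the p-values reflect how far these arrays spread, which may be technical spread only, and a difference between the genotypes is that of the transformed seedlings as sampled.

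Glycine-rich RNA-binding proteins bind RNA and act on splicing, stability and export of transcripts. The Arabidopsis members GRP7 and GRP8 cycle with the circadian clock, and GRP7 is known to lower its own and the GRP8 transcript through alternative splicing. The plant clock is a set of repressors that follow each other through the day: CCA1 and LHY act around dawn, PRR9, PRR7 and PRR5 through the day, and TOC1 and the evening complex of ELF3, ELF4 and LUX around dusk. Seedlings under salt also make abscisic acid (ABA), which raises dehydrins, osmolyte enzymes and feedback phosphatases.

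Levels are given as log2 signal minus the 75th percentile of the array, so a value of 0 is the 75th percentile. Differences are SvGRP minus wild type at 150 mM NaCl on the log2 scale, ± standard error, with 3 arrays per group, and adjusted p-values are those of limma with Benjamini-Hochberg adjustment over all 26794 genes or unnamed probes tested. A gene is said to have risen or fallen in SvGRP when its adjusted p was under 0.05. The 75th percentile of the signal ran from 4946 to 5676 on the 6 arrays, and arrays of a group correlated with r of 0.990 to 0.997. With 3 arrays in a group the precision is limited.

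The arrays came from 3 slides, and no slide held both genotypes at 150 mM NaCl. Wild type replicate 1 lay on slide 1, wild type replicates 2 and 3 on slide 2, and the 3 SvGRP arrays on slide 3. At 0 mM all wild-type arrays lay on slide 1, SvGRP replicates 1 and 2 on slide 2 and SvGRP replicate 3 on slide 3. So no slide held both genotypes at 0 mM either. Slide and genotype could be parted only through the arrays at 0 mM, where SvGRP replicate 3 shared slide 3. With slide as a term in the fit 239 genes were called (34 higher, 205 lower, 0.892% of those tested), against 7747 without it. Of the 239, 229 were also called without slide and in the same direction. The rule for naming genes took 158 genes, of which 153 were called, and 26 of these kept the call with slide: LBD20, SESA5, NDB3, ZIP7, QQS, BAM6, BCAT4, VSP2, VSP1, GRP7, CCA1, TOC1, PRR3, ELF4, LUX, PRR9, COR27, AT4G33980, BAM3, DIN10, GAMMA-TIP, MYB111, WRKY54, TGG2, KN and CYCB1;2. Every other called gene of that rule lost the call with slide, and the value with slide is given below for the genes each account turns on. Over all genes the differences without and with slide correlated with r of 0.838. Calls were lost at larger values, as for P5CS1 (0.82 without and 1.29 with slide), and at smaller ones, as for PRP1 (-3.22 and -0.14). The part of slide in the lost calls was not tested. SESA5 was kept for testing only through SvGRP at 150 mM, where it is high, so nothing is read from its call.

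**Figure D1:**
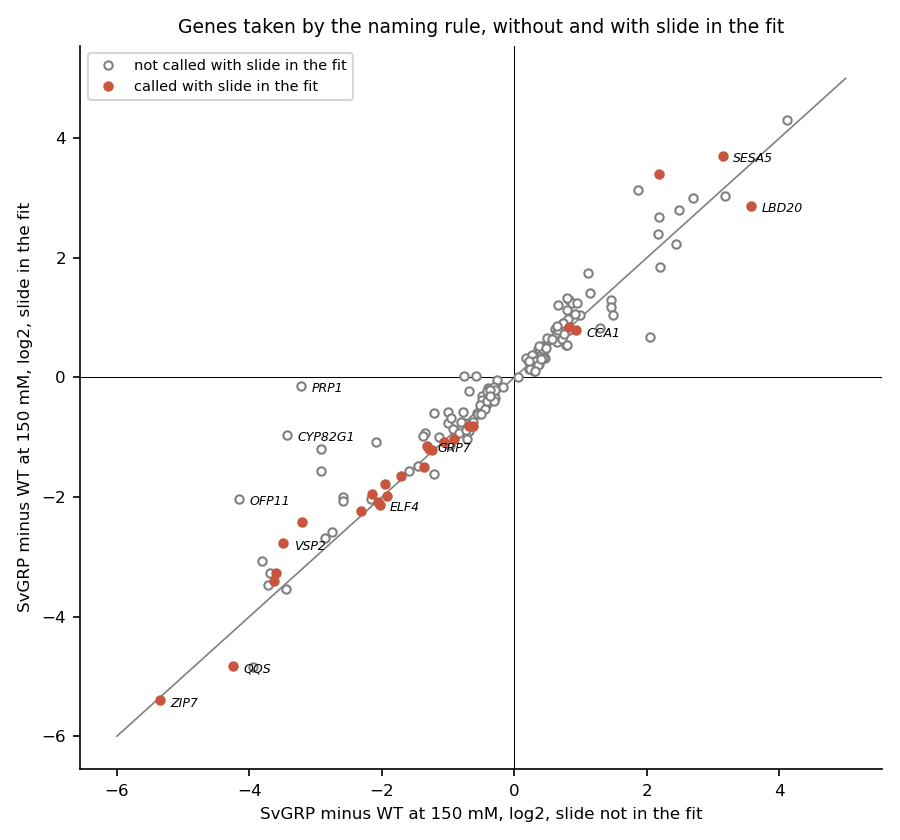
Each point is 1 of the 158 genes taken by the naming rule, with the SvGRP minus wild type difference at 150 mM NaCl (log2) without slide in the fit on the x axis and with slide in the fit on the y axis; the grey line marks equal values. Filled points, among them ZIP7, QQS, ELF4 and LBD20, were called with slide in the fit, and PRP1, CYP82G1 and OFP11 lie well off the line.

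Under salt 7747 of the 26794 genes differed between the genotypes (28.9%), of which 2746 were higher in SvGRP (10.2%) and 5001 lower (18.7%). The counts of the gene lists below are to be read beside these shares, and a count near them is not a result about its list. The larger changes were mostly falls: of the 1208 genes that differed at least 2-fold (4.51%), 975 were lower in SvGRP and 233 higher. The median difference over all genes was -0.022. The fit pooled the spread of the groups at both NaCl levels, and those at 150 mM spread more. The median SD of a gene was 0.101 in wild type and 0.13 in SvGRP at 150 mM, and 0.0889 and 0.0644 at 0 mM. So the p-values at 150 mM may be too small. With the groups compared alone in the fit, which leaves fewer arrays to estimate spread, 3757 genes were called (911 higher, 2846 lower). Of the 153 named genes called, 93 kept the call in that fit and 60 lost it. The 6 arrays did not overlap for 10769 genes (40.2%). How many of the calls were rises depended on the scaling: they were 35.4% of the calls here, 50.1% after quantile normalization, 53.5% after scaling to the array median and 68.5% after scaling to the E1A spike-in probes, under which the median gene lay at 0.156. Of all 26794 genes 4067 rose and 4058 fell after quantile normalization, 4398 and 3824 after median scaling, and 3887 and 1789 under E1A scaling. List counts under another scaling are to be read beside these. List counts at 0 mM are to be read beside 10.4% higher and 10.8% lower over all genes. In whole seedlings fewer cells of a type and less RNA per cell cannot be told apart.

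ZIP7, a ZIP-family metal transporter, was among the genes that fell. It read -6.08, -5.25 and -5.86 on the wild-type arrays and -11.07, -11.24 and -10.95 on the SvGRP arrays. The groups lay far apart, and all 3 SvGRP values were below the 20th percentile of their arrays, so the transcript was at least 4.52-fold lower in SvGRP (adjusted p = 1.53e-06, and 0.00437 with slide). For such genes the bound sets the mean of the brighter group against the 20th percentile of the dim arrays.

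QQS, an orphan gene whose level affects starch and protein content, read -0.95, -0.28 and -0.64 in wild type and -4.81, -5.06 and -4.73 in SvGRP. Every SvGRP array was far below every wild-type array, and the difference was -4.24 ± 0.17, adjusted p = 1.53e-06 (-4.82 with slide, adjusted p = 0.000146). The beta-amylase gene BAM6 went from -3.11, -3.16 and -3.58 to -6.64, -7.04 and -7.05, again with no overlap (-3.62 ± 0.21, adjusted p = 1.11e-05, with slide -3.40). OFP11, an ovate family protein, was at least 3.44-fold lower in SvGRP, but its fitted difference went from -4.15 to -2.03 with slide. It was kept for testing only through wild type at 150 mM, where it is high. It had to differ, so nothing is read from its call.

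PCC1, a gene under clock control that is raised by pathogens, varied widely within the groups. Its wild-type arrays read -2.90, -4.24 and -1.15 and its SvGRP arrays -8.14, -4.81 and -7.17. The groups did not overlap, yet SvGRP replicate 2 lay near wild type replicate 2, and the difference was -3.95 ± 0.88, adjusted p = 0.00926. The lectin gene JAL23 (-3.80 ± 0.59, adjusted p = 0.00159) rests on its brightest probe: with all its probes averaged the difference was 0.46 and not called, so its probes disagree. MBP1, a myrosinase-binding protein, fell as well (-3.70 ± 0.40, adjusted p = 0.000293). BAM5 and CYP82G1, a P450 of homoterpene synthesis, fell too (-3.45 ± 0.74 and -3.44 ± 0.92), and in both wild type replicate 1 stood apart: BAM5 read -0.86, -3.81 and -3.71 on the wild-type arrays and CYP82G1 -1.71, -5.34 and -5.59. The call on CYP82G1 was lost without SvGRP replicate 1 or 2 (differences from -3.40 to -2.98), and its value with slide was -0.96. CYP82G1 too was kept for testing only through wild type at 150 mM, so nothing is read from its call.

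Among the rises, LBD20, a lateral organ boundaries domain factor, read -4.97, -4.16 and -4.23 in wild type and -0.37, -0.99 and -1.26 in SvGRP. The 3 SvGRP arrays were all well above the wild type, with a difference of 3.58 ± 0.26, adjusted p = 3.91e-05 (2.87 with slide, adjusted p = 0.0223). The rise of NDB3, a mitochondrial NAD(P)H dehydrogenase, also kept its call with slide (-6.39, -6.52 and -5.90 against -4.16, -4.08 and -4.03, difference 2.18 ± 0.37, adjusted p = 0.00271), at the larger value of 3.40.

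The other large rises had low levels, and several are genes of seeds. SESA5, a seed storage albumin, was below the 20th percentile on the wild-type arrays and read -7.21, -6.71 and -6.88 in SvGRP, at least 1.57-fold higher. The late embryogenesis gene M17 gave the largest fitted difference (4.12 ± 0.74, adjusted p = 0.00334), with wild-type values as far apart as -5.89, -8.95 and -6.70 and SvGRP values of -3.11, -2.09 and -3.97. CRA1, a cruciferin, and OLEO2, an oleosin of seed oil bodies, rose by 2.44 ± 0.37 and 2.2 ± 0.34. SOM, a zinc finger protein that restrains germination in the dark, rose by 2.18 ± 0.53, and the ferredoxin gene FD4 by 3.19 ± 0.64. The aldehyde oxidase gene AO4 was at least 4.18-fold and the Skp1-like gene SK13 at least 2.62-fold higher in SvGRP. The call on AO4 was lost without SvGRP replicate 2 (difference 2.52), and the value of SK13 went from 2.05 to 0.68 with slide. SESA5, FD4, AO4 and SK13 were kept for testing only through SvGRP at 150 mM, where they are high. They had to differ, so nothing is read from their calls.

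Of the 11 seed storage and oleosin markers, 6 passed the filter on low signals, and of these 4 rose and 1 fell. A gene that passed only through the group where it is high had to differ, so nothing is read from this count. The mean of these 6, given as values alone, lay at -5.62, -5.71 and -5.48 on the wild-type arrays and -4.53, -4.74 and -4.79 on the SvGRP arrays. Without salt it lay at -7.03, -6.43 and -6.67 in wild type and -5.73, -5.47 and -5.49 in SvGRP. PER1, a peroxiredoxin of seeds, rose (1.49 ± 0.38, adjusted p = 0.016) while OLEO4, another oleosin, fell (-1.38 ± 0.20, adjusted p = 0.00128). The call on PER1 was lost without wild type replicate 2 (difference 1.29), and without wild type replicate 2 the list had 2 rises. Whether seedlings of the genotypes differed in stage was not tested.

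The endogenous GRP7 and GRP8 transcripts were lower in SvGRP. GRP7 read 6.71, 6.66 and 6.64 in wild type and 5.30, 5.31 and 5.44 in SvGRP. The arrays of each genotype differed by little and the gap between the genotypes was many times the spread, at -1.32 ± 0.082, adjusted p = 1.77e-05 (-1.15 with slide, adjusted p = 0.0244). GRP8 read 5.34, 5.31 and 5.34 and 4.23, 4.19 and 4.59, a difference of -1.0 ± 0.12, adjusted p = 0.000428 without overlap. With slide GRP8 was at -0.75 and lost its call (adjusted p = 0.162). Without salt the differences were -1.58 for GRP7 and -1.07 for GRP8.

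Other members of the same list moved little. Of the 12 genes tested for glycine-rich RNA-binding or cold shock proteins, 2 fell and 2 rose, with a list median of 0.047. The rises were those of GR-RBP2, a mitochondrial RNA-binding protein (0.35 ± 0.082, adjusted p = 0.0116), and RZ-1A, a zinc finger RNA-binding protein (0.21 ± 0.043, adjusted p = 0.00546). The cold shock domain genes CSDP1, GRP2, CSP3 and GRP2B, RNA chaperones, lay between -0.088 and 0.17 and were not called.

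Of 9 evening genes of the clock tested 6 fell and none rose, with a median of -0.55. ELF4, of the evening complex, read 1.91, 2.13 and 2.04 in wild type and 0.036, -0.16 and 0.10 in SvGRP. The 3 SvGRP arrays were all near the 75th percentile of their arrays and about 2 log2 units under the wild type (-2.04 ± 0.09, adjusted p = 1.85e-06; -2.14 with slide, adjusted p = 0.00487). PRR3, a pseudo-response regulator, fell from -1.13, -1.31 and -1.55 to -3.37, -3.47 and -3.58 (-2.15 ± 0.13, adjusted p = 1.7e-05). LUX, the DNA-binding partner of the evening complex, went from 0.83, 0.88 and 0.76 to -1.07, -0.95 and -0.67 (-1.72 ± 0.11, adjusted p = 2.15e-05).

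TOC1, which represses CCA1 and LHY, read -0.53, -0.50 and -0.64 in wild type and -1.96, -1.85 and -1.72 in SvGRP. As with the evening complex, no SvGRP array reached the wild-type range (-1.28 ± 0.10, adjusted p = 4.87e-05, with slide -1.20 and adjusted p = 0.0495). ELF3, the scaffold of the evening complex, and FKF1, a blue-light F-box protein, fell less (-0.55 ± 0.06 and -0.29 ± 0.065). GI, PRR5 and ZTL were not called, at -0.13, -0.41 and 0.099. With slide, 4 of the 6 falls kept their call: ELF4, PRR3, LUX and TOC1.

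Genes listed as morning genes mostly moved the other way. Of 14 tested 10 rose and 2 fell. The 2 falls were COR27 and AT4G33980, whose time of expression was not measured here and which need not be morning genes. CCA1, the dawn repressor, read 1.07, 1.15 and 1.16 in wild type and 2.03, 2.07 and 2.09 in SvGRP. SvGRP was about 1 log2 unit higher on every array (0.94 ± 0.071, adjusted p = 4.38e-05; 0.79 with slide, adjusted p = 0.0495). PRR9, repressor of the early day, read -2.84, -2.66 and -2.67 and -1.91, -1.84 and -1.93 (0.83 ± 0.064, adjusted p = 4.4e-05; 0.85 with slide).

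The LNK genes, coactivators of the morning loop, rose together: LNK4 by 0.65 ± 0.073, LNK3 by 0.64 ± 0.099, LNK2 by 0.57 ± 0.059 and LNK1 by 0.53 ± 0.06. PRR7 rose by 0.47 ± 0.079, RVE1, a morning MYB factor, by 0.43 ± 0.12, and LHY by 0.37 ± 0.097. The call on LHY was lost without wild type replicate 1 or SvGRP replicate 3 (differences from 0.29 to 0.32), and that on RVE1 without wild type replicate 1 or 3 or SvGRP replicate 1 or 2 (differences from 0.35 to 0.42). Against these, COR27, a cold-induced repressor of clock genes, read 0.50, 0.55 and 0.38 in wild type and -2.07, -1.77 and -1.66 in SvGRP. It and AT4G33980 fell by over 2 log2 units (-2.31 ± 0.099, adjusted p = 1.53e-06, and -2.06 ± 0.14, adjusted p = 2.51e-05), and both kept the call with slide (-2.23 and -2.09).

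**Figure D2:**
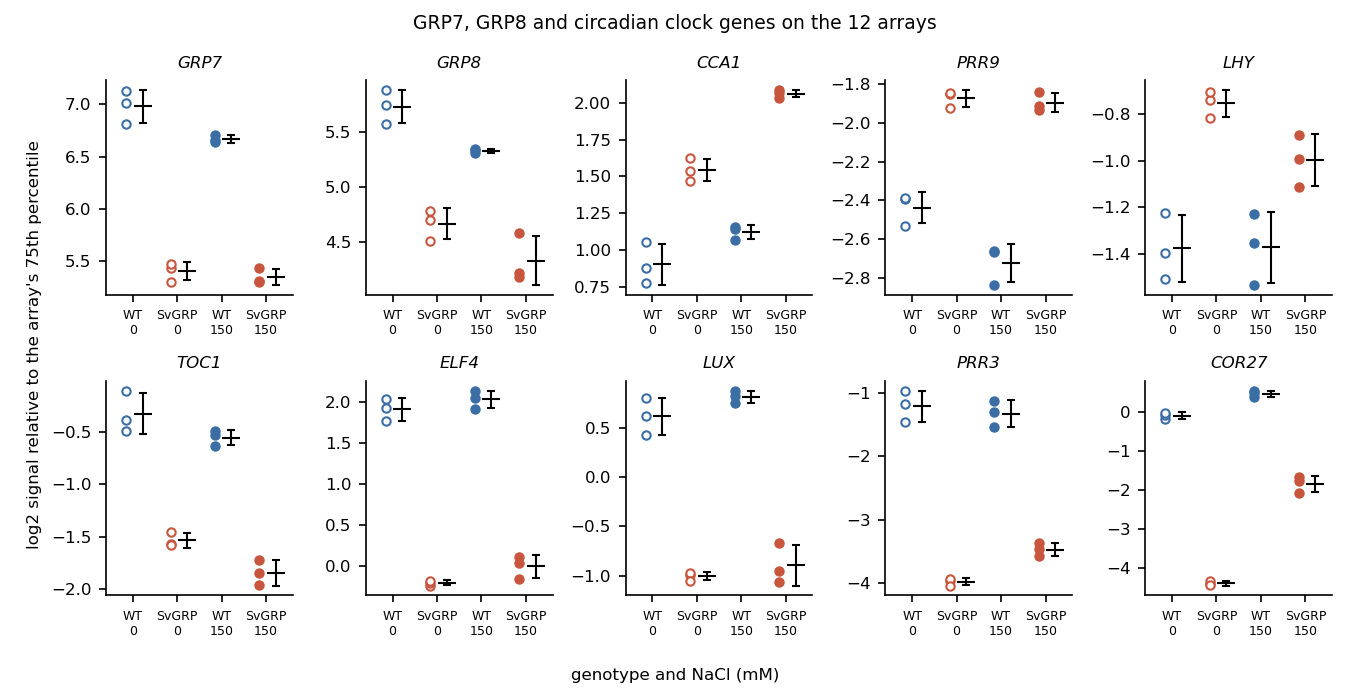
Each panel gives 1 gene, with the level on each of the 12 arrays (log2 relative to that array's 75th percentile, y axis) by genotype and NaCl in mM; open points are 0 mM, filled points 150 mM, and bars give the mean and SD of 3 arrays. GRP7, GRP8, TOC1, ELF4, LUX, PRR3 and COR27 are lower and CCA1, PRR9 and LHY higher in SvGRP at both NaCl levels, without overlap between the genotypes.

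These clock differences were also there without salt. At 0 mM ELF4 differed by -2.12, PRR3 by -2.77, LUX by -1.62, TOC1 by -1.21, CCA1 by 0.64 and PRR9 by 0.57, and none of these genes had a called change of the difference with salt. COR27 and AT4G33980 did: they lay further down in SvGRP without salt (-4.31 and -3.47), and the difference of the differences was 2.0 (adjusted p = 0.000494) and 1.40 (adjusted p = 0.00624). Of the light-growth regulators, PIF5 and PIF3, factors that promote elongation in the dark, rose (0.44 ± 0.072 and 0.55 ± 0.12), as did HYH (0.30 ± 0.062), while HY5, which opposes them in light, fell (-0.41 ± 0.05). The other 5 of the 9 regulators tested were not called. Of 10 flowering genes tested CO, the photoperiod factor, was the one called (-0.76 ± 0.23, adjusted p = 0.0326), a call lost without wild type replicate 2 or 3 or SvGRP replicate 2 or 3 (differences from -0.74 to -0.64). Other scalings turned this count: 2 rose and 0 fell after quantile normalization, 2 rose and 1 fell after median scaling, and 3 rose and 0 fell under E1A scaling. FLC was at 0.078 and SOC1 at -0.024, both not called.

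Glucosinolates, the sulfur-rich defence compounds of the cabbage family, are made from methionine (aliphatic) or tryptophan (indole), and myrosinases cleave them. Nearly the whole aliphatic list was lower in SvGRP: 15 of 16 genes tested fell and none rose, with a median of -1.65 against -0.022 over all genes. The list mean was 0.64, 0.45 and 0.58 on the wild-type arrays and -1.29, -1.12 and -0.95 on the SvGRP arrays. CYP79F1, the P450 that converts chain-elongated methionine, read 1.08, 0.74 and 0.89 in wild type and -4.30, -2.34 and -1.81 in SvGRP. It was lowest on SvGRP replicate 1 and below wild type on all 3 (-3.72 ± 0.51, adjusted p = 0.000861).

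BCAT4, the aminotransferase that starts methionine chain elongation, read 0.69, 0.23 and 0.42 and -3.70, -3.13 and -2.60. Groups were over 2 log2 units apart at their closest arrays, and the call held with slide (-3.59 ± 0.24, adjusted p = 2.51e-05; -3.28 with slide, adjusted p = 0.0285). MAM1, which extends the chain, went from 2.65, 2.46 and 2.68 to -1.11, -0.056 and 0.39 (-2.85 ± 0.30, adjusted p = 0.000252), and with slide stood at -2.69 (adjusted p = 0.0964). Chosen after their values were seen, CYP83A1, the P450 that follows CYP79F1, the plastid carrier gene BAT5 and the MYB regulator MYB76 also kept their calls with slide, at -2.2, -1.74 and -1.81. Their values without slide were -2.37, -1.91 and -2.31. MYB28, another regulator of the pathway, was the gene of the list that was not called, at -0.23 (adjusted p = 0.217).

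For indole glucosinolates and myrosinases 6 of 11 genes fell and none rose, with a median of -0.37. TGG2, a myrosinase, read 2.67, 2.82 and 2.66 in wild type and 0.78, 0.75 and 0.76 in SvGRP. The arrays within each group were within 0.2 log2 units of each other (-1.96 ± 0.078, adjusted p = 1.53e-06; -1.78 with slide, adjusted p = 0.00437), whereas the other myrosinase TGG1 was at -0.095 and not called. UGT74B1, a glucosyltransferase that serves both branches, fell (-0.93 ± 0.082), and so did CYP79B3 and CYP79B2, which make the indole precursor (-0.68 ± 0.16 and -0.56 ± 0.13). Their values with slide were -0.23 and -0.22. Under E1A scaling 2 genes of this list fell and 1 rose.

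Jasmonates are wound and defence hormones made from plastid lipids through LOX2, AOS, AOC and OPR3, and JAZ proteins repress their response. In SvGRP 11 of the 26 jasmonate genes tested fell and none rose. The list median was -0.93, or -0.84 without PDF1.2, which was below the 20th percentile in both groups. With slide the median was -0.50 and 3 falls were called, those of VSP1, VSP2 and JAZ6. VSP2, a storage protein raised by jasmonate, read 3.77, 3.61 and 3.44 in wild type and 0.12, -0.12 and 0.35 in SvGRP. No SvGRP array came within 3 log2 units of the wild type (-3.49 ± 0.20, adjusted p = 9.42e-06; -2.78 with slide, adjusted p = 0.00815).

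VSP1, its close paralog, with which hybridization could be shared, followed it (4.07, 3.70 and 3.73 against 0.64, 0.32 and 0.93, difference -3.20 ± 0.22, adjusted p = 2.66e-05, with slide -2.42). LOX2, the lipoxygenase at the start of the pathway, read 5.55, 5.33 and 5.28 and 2.49, 3.15 and 2.76, which made it -2.59 ± 0.29, adjusted p = 0.00035. With slide LOX2 was at -2.07 (adjusted p = 0.139). Chosen after their values were seen, AOC2 and OPR3, of later steps, fell as well (-2.04 ± 0.21 and -1.02 ± 0.20), and both lost the call with slide (-1.67, adjusted p = 0.0653, and -0.75, adjusted p = 0.0631). The repressor gene JAZ6, chosen likewise (-1.3 ± 0.17), kept its call with slide (-1.06, adjusted p = 0.0434).

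Wild type replicate 1, the array on slide 1, stood above its group for this list. The list mean was 0.64, -0.27 and -0.46 on the wild-type arrays and -1.33, -1.17 and -0.76 on the SvGRP arrays. Chosen after their values were seen, the repressor gene JAZ7 read 0.92, -1.70 and -1.96 in wild type, and CYP94C1, which breaks down jasmonoyl-isoleucine, 0.61, -2.50 and -3.10. Neither was called (-1.07 and -1.26). Without that array 10 genes fell and the list median was -0.44. CLH1, a chlorophyllase raised by jasmonate, was the gene called among 13 of chlorophyll breakdown and senescence (2.1, 1.31 and 1.09 against -0.21, -0.72 and -1.08, -2.17 ± 0.29, adjusted p = 0.000774).

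Of 12 markers of root hairs and root triterpenes tested under salt 11 fell, with a median of -1.95; at 0 mM the median was 0.13 and 0 were called. EXPA18, an expansin of root hairs, read -0.70, -0.69 and -1.06 in wild type and -3.70, -4.74 and -2.78 in SvGRP. The SvGRP arrays were spread over nearly 2 log2 units, all under the wild type (-2.92 ± 0.52, adjusted p = 0.00303). PRP3, a proline-rich wall protein, behaved alike (-0.87, -0.65 and -0.65 against -3.64, -4.64 and -2.66, -2.92 ± 0.62, adjusted p = 0.00766).

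The regulators RSL4 and RHD6, factors that start hair growth, fell (-1.65 ± 0.27 and -1.07 ± 0.21). COBL9 and LRX1, which act on the hair wall, fell (-2.48 ± 0.37 and -1.97 ± 0.33), as did EXPA7 (-2.64 ± 0.42). Of the thalianol cluster of root triterpenes, THAH and THAD1 fell (-1.91 ± 0.25 and -1.93 ± 0.40), and THAS1 as well (-0.89 ± 0.25), with a call lost without wild type replicate 3 or SvGRP replicate 1 or 2 (differences from -0.78 to -0.75). PRP1 was at -3.22 ± 0.84, but its call was lost without wild type replicate 2 or SvGRP replicate 2 (differences from -3.15 to -2.90), and MRN1, of marneral synthesis, was not called (-1.67, adjusted p = 0.103).

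The list mean was -2.34, -1.99 and -2.0 on the wild-type arrays and -4.22, -4.85 and -3.59 on the SvGRP arrays at 150 mM. At 0 mM it was -2.2, -2.81 and -1.86 in wild type and -1.81, -1.61 and -2.91 in SvGRP, with SvGRP replicate 3, the array on slide 3, the lowest of the 6. With slide in the fit none of the 12 markers was called and the median was -1.15. The value of PRP1 with slide was -0.14, that of EXPA18 -1.57 and that of PRP3 -1.19. The change of the difference with salt was called, downward, for 7 of the 12, and for none of them with slide.

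Of 14 endodermis markers only 6 were found on the array by name and tested. Of these 6, beside 28.9% called over all genes, 1 rose (KCS2, an enzyme of suberin, 0.94 ± 0.20, adjusted p = 0.00816) and 1 fell (MYB36, a regulator of the Casparian strip, -0.37 ± 0.12, adjusted p = 0.0459), the latter lost without wild type replicate 1, 2 or 3 or SvGRP replicate 1 or 2 (differences from -0.40 to -0.28). The mean of these 6 lay at -0.17, 0.013 and -0.37 in wild type and -0.094, -0.46 and -0.095 in SvGRP, which overlap. Of 12 shoot, leaf and stomatal markers, STM, of the shoot meristem, fell (-0.37 ± 0.091, adjusted p = 0.0155) and TMM, of the stomatal lineage, rose (0.31 ± 0.098, adjusted p = 0.0424). The call on TMM was lost without wild type replicate 1 or 2 or SvGRP replicate 1 or 2 (differences from 0.25 to 0.31). The shoot list lay at -2.84, -3.10 and -2.71 and -2.75, -2.69 and -3.10. The share of root in the seedlings was not measured, and its part in the root hair result was not tested.

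**Figure D3:**
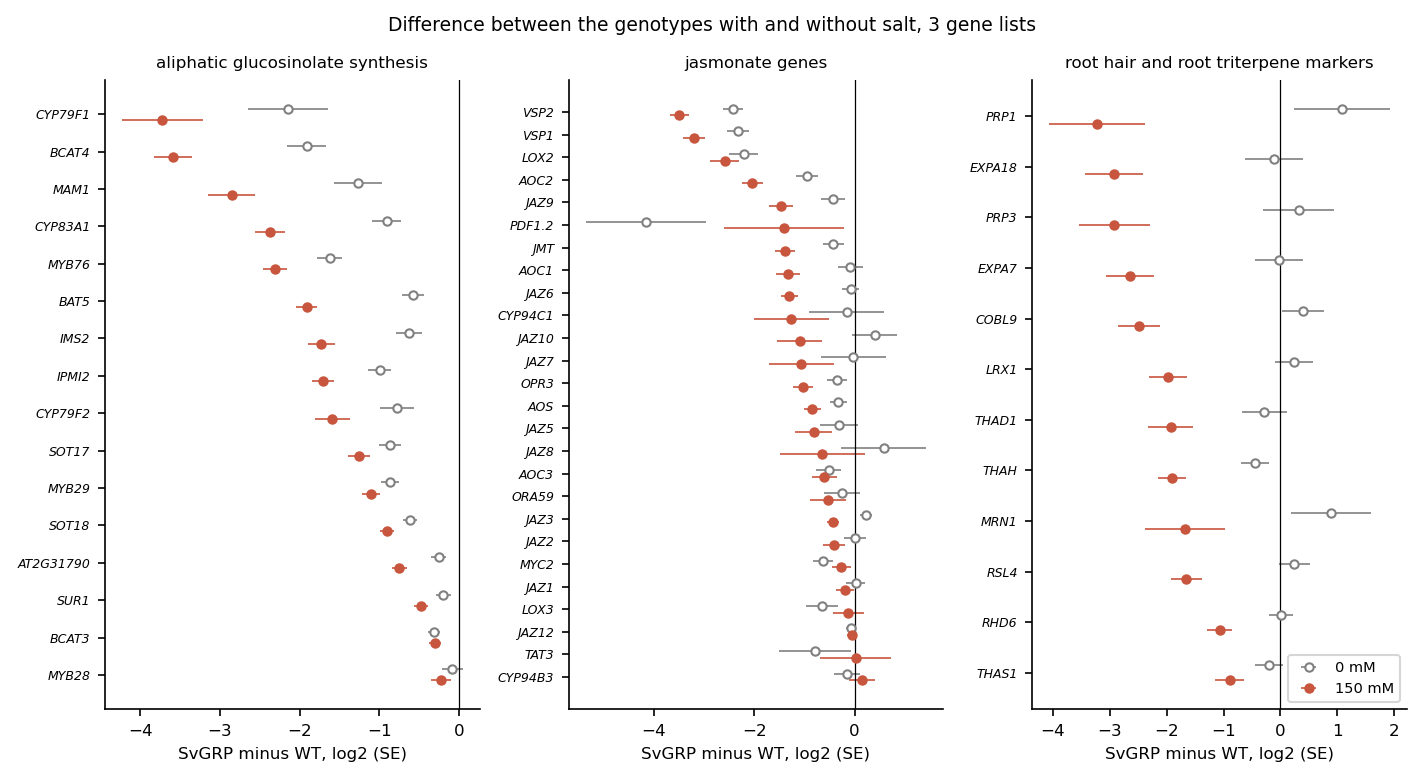
Each row is 1 gene of the aliphatic glucosinolate, jasmonate or root marker list, with the SvGRP minus wild type difference (log2, x axis; bars are the standard error) at 150 mM (filled) and 0 mM (open). Glucosinolate genes lie under 0 at both NaCl levels, and the root markers lie under 0 at 150 mM and around 0 at 0 mM.

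Of 23 genes tested for dehydrins, LEA proteins and related products of ABA and drying, 3 rose and 2 fell, beside 10.2% and 18.7% of all genes, with a median of 0.39. RAB18, a dehydrin, read 6.30, 6.17 and 5.71 in wild type and 6.23, 6.26 and 6.24 in SvGRP and was not called (0.18 ± 0.23, adjusted p = 0.589). RD29A, a hydrophilic dehydration protein, read 4.11, 3.80 and 3.78 and 3.97, 4.71 and 4.97, where SvGRP replicate 1 lay among the wild type and replicates 2 and 3 above it. The difference was 0.65 ± 0.23, adjusted p = 0.0621, not called.

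RD29B, its ABA-dependent neighbour, was called (1.87 ± 0.57, adjusted p = 0.034). Its wild-type values were -0.11, -0.38 and -1.57 and its SvGRP values -0.11, 1.61 and 2.05, so wild type replicate 1 and SvGRP replicate 1 were level. The call was lost without wild type replicate 2 or 3 or SvGRP replicate 2 or 3 (differences from 1.43 to 2.02). RD22, a dehydration-raised wall protein, rose on all 3 arrays (4.24, 4.07 and 3.94 against 4.48, 4.75 and 4.87, 0.62 ± 0.11, adjusted p = 0.00324). EM6, a seed LEA protein, rose by 0.99 ± 0.31, a call lost without wild type replicate 1 or 3 or SvGRP replicate 2 or 3 (differences from 0.78 to 0.96). HIRD11, a small dehydrin, and KIN2, a cold-raised protein, fell (-0.40 ± 0.076 and -0.26 ± 0.064).

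SvGRP replicate 1 decided how many of these genes were called. Without it 11 genes of the list rose and 3 fell, and without any other array the rises were 1 or 2. Likewise 5 of 8 CBF and DREB2 factors rose without SvGRP replicate 1, against 1 with all arrays (CBF2, a cold-response activator, 0.66 ± 0.13, adjusted p = 0.00491) and 6 after quantile normalization. Among HD-Zip and NAC factors 5 of 17 rose, 8 without SvGRP replicate 1, and 1 or 2 without wild type replicate 2 or 3 or SvGRP replicate 2 or 3. HB-12, an ABA-raised homeodomain factor, was at 1.11 ± 0.30 and RD26, a NAC factor, at 0.86 ± 0.25. The call on HB-12 was lost without wild type replicate 2 or 3 or SvGRP replicate 2 or 3 (differences from 0.80 to 1.11), and that on RD26 without wild type replicate 3 or SvGRP replicate 2 or 3 (differences from 0.57 to 0.93).

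**Figure D4:**
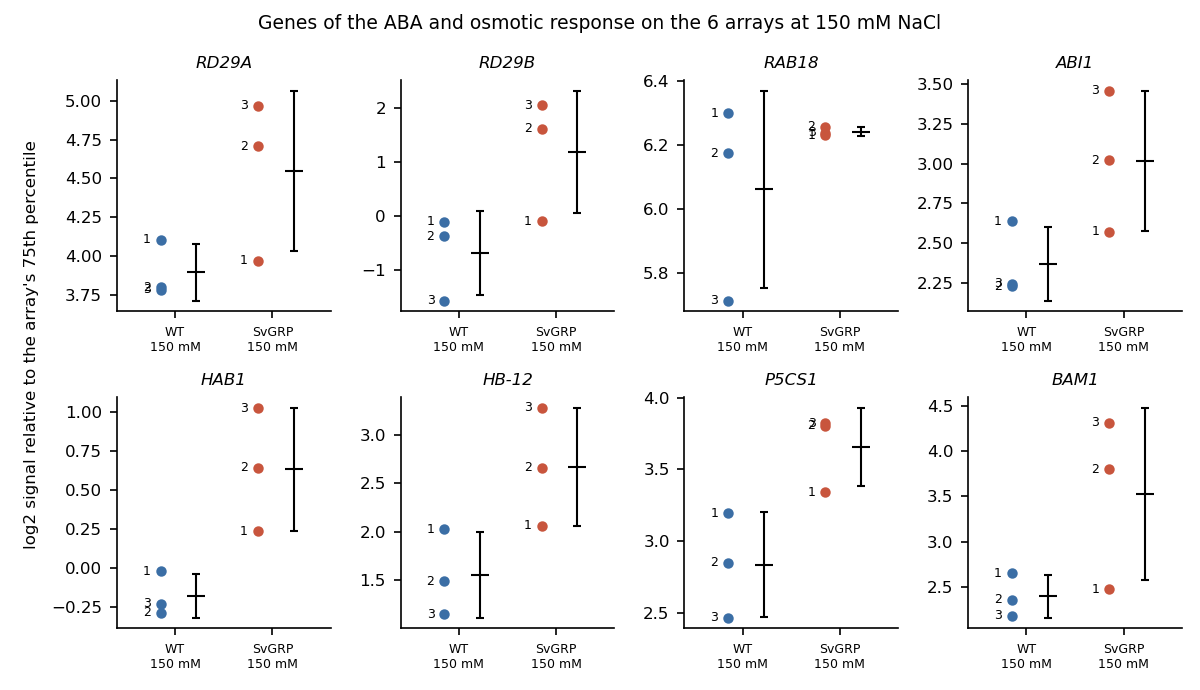
Each panel gives 1 gene, with its level on the 6 arrays at 150 mM NaCl (log2 relative to that array's 75th percentile, y axis), labelled by replicate number, and the mean and SD of 3 arrays beside them. SvGRP replicate 1 is the lowest SvGRP array for each of the 8 genes, while for RD29A and BAM1 it lies within or next to the wild-type values.

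Clade A phosphatases switch off ABA signalling and are raised by ABA. Of the 9 tested 6 rose in SvGRP and none fell, with a median of 0.65. Both the count and the median include AHG1, which is set aside below. HAB1 read -0.018, -0.28 and -0.23 in wild type and 0.24, 0.64 and 1.02 in SvGRP. All SvGRP arrays lay above the wild type (0.81 ± 0.17, adjusted p = 0.00679). ABI1 read 2.64, 2.23 and 2.25 and 2.57, 3.02 and 3.46, with SvGRP replicate 1 just under wild type replicate 1 (0.65 ± 0.19, adjusted p = 0.0334). PP2CA, HAB2, ABI2 and AHG1 were the other rises, at 0.54 ± 0.16, 0.36 ± 0.11, 0.73 ± 0.19 and 2.48 ± 0.76. AHG1 was kept for testing only through SvGRP at 150 mM, where it is high, so nothing is read from its call. Of the 6, HAB1 alone kept its call without each array in turn: ABI1 lost it without wild type replicate 2 or 3 or SvGRP replicate 2 or 3 (differences from 0.43 to 0.64), PP2CA without wild type replicate 2 or 3 or SvGRP replicate 3 (differences from 0.35 to 0.56), HAB2 without wild type replicate 1 or 3 (differences from 0.32 to 0.35), ABI2 without wild type replicate 2 or 3 (differences from 0.68 to 0.70) and AHG1 without wild type replicate 1 or 3 or SvGRP replicate 2 or 3 (differences from 1.67 to 2.44). The list had 1 rise without wild type replicate 3 and 3 without wild type replicate 2 or SvGRP replicate 3, and none with slide in the fit, where its median was 0.96.

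Of 10 PYR/PYL genes of ABA receptors tested 4 fell and none rose: PYL8 (-0.56 ± 0.086, adjusted p = 0.00154), PYR1 (-0.43 ± 0.055, adjusted p = 0.000643), PYL5 (-0.49 ± 0.12, adjusted p = 0.0155) and PYL9 (-0.16 ± 0.053, adjusted p = 0.0449). PYL5 lost its call without wild type replicate 2 (difference -0.45), PYL9 without wild type replicate 1 or 2 or SvGRP replicate 2 or 3 (differences from -0.17 to -0.12), 2 genes fell without wild type replicate 2, and none fell under E1A scaling. The factors ABF2, ABF3 and ABF4, which bind ABA response elements, rose (0.65 ± 0.12, 0.51 ± 0.095 and 0.38 ± 0.093), as 3 of the 9 kinases and factors tested, and ABF4 lost its call without wild type replicate 2 (difference 0.35).

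In ABA metabolism 3 of 14 genes rose and 2 fell, while 5 rose after quantile normalization, 7 after median scaling and 6 under E1A scaling. NCED3, the step that limits ABA synthesis under drought, read -0.90, -0.22 and -0.99 and -0.28, -0.13 and 0.68 and was not called (0.80 ± 0.28, adjusted p = 0.0562). ABA1, which supplies the precursors, rose (0.39 ± 0.087), and so did CYP707A4, which breaks ABA down (0.73 ± 0.16). AAO3, the last step of synthesis, rose by 0.81 ± 0.26, a call lost without wild type replicate 1, 2 or 3 or SvGRP replicate 2 or 3 (differences from 0.55 to 0.87). BGLU18, which releases ABA from its glucose ester, read 4.36, 3.82 and 3.94 in wild type and 2.67, 2.38 and 3.02 in SvGRP, lower on every array (-1.35 ± 0.23, adjusted p = 0.0025), and ABA2, a dehydrogenase of the same pathway, fell too (-0.31 ± 0.061).

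Of 19 genes of starch and raffinose-family sugars 8 fell and 2 rose, with a median of -0.24, and under E1A scaling 5 fell. With slide 3 falls were called and the median was -0.093. BAM3, the beta-amylase of leaf starch, read 3.35, 3.32 and 3.12 in wild type and 1.04, 1.46 and 1.51 in SvGRP. All SvGRP arrays lay more than 1.5 log2 units lower (-1.93 ± 0.15, adjusted p = 5.51e-05; -1.99 with slide, adjusted p = 0.0382). DIN10, a raffinose synthase family gene raised in the dark, read 2.56, 2.87 and 2.64 and 1.22, 1.49 and 1.29 (-1.36 ± 0.12, adjusted p = 0.000115; -1.50 with slide). Without salt DIN10 differed by -0.22, and the change with salt was called at -1.14 (adjusted p = 0.00809).

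The other falls of that list were QQS, given above, and 5 smaller ones among the enzymes that phosphorylate and cut starch and use maltose. BAM1, the beta-amylase of guard cells and osmotic stress, went against them, at 2.65, 2.36 and 2.18 in wild type and 2.47, 3.80 and 4.32 in SvGRP. SvGRP replicate 1 lay within the wild type and the other SvGRP arrays far above (1.14 ± 0.37, adjusted p = 0.0456). APL4, a subunit of the enzyme that supplies ADP-glucose, had the same pattern (0.62, 0.33 and 0.28 against 0.50, 1.54 and 1.93, 0.92 ± 0.29, adjusted p = 0.0391). Both calls were lost without any array but SvGRP replicate 1, with differences from 0.74 to 1.26 for BAM1 and from 0.61 to 1.02 for APL4.

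The gene for the first step of proline synthesis was higher in SvGRP. P5CS1, which limits proline synthesis under salt, read 3.20, 2.85 and 2.47 in wild type and 3.34, 3.81 and 3.82 in SvGRP, where SvGRP replicate 1 lay just above wild type replicate 1 (0.82 ± 0.19, adjusted p = 0.0101, with slide 1.29). Of 10 proline genes 3 rose and 1 fell. P5CS2 and the transporter gene PROT2 were at 0.49 ± 0.15 and 0.23 ± 0.065, and AT5G38710 at -0.50 ± 0.13. Their calls were lost without wild type replicate 2 or 3 or SvGRP replicate 2 or 3 (differences from 0.35 to 0.49) for P5CS2, without wild type replicate 1, 2 or 3 or SvGRP replicate 2 (differences from 0.16 to 0.24) for PROT2, and without wild type replicate 1 or 2 or SvGRP replicate 1 or 2 (differences from -0.49 to -0.39) for AT5G38710.

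Of the transporters of sodium, SOS1 and HKT1 were not called. SOS1, the sodium exporter of the plasma membrane, read -1.54, -1.55 and -1.62 in wild type and -1.53, -1.51 and -1.52 in SvGRP, a range of under 0.2 log2 units over all 6 arrays (0.05 ± 0.054, adjusted p = 0.519). HKT1, which takes sodium out of the xylem, read -5.44, -5.65 and -5.89 and -4.86, -5.48 and -5.38 (0.42 ± 0.16, adjusted p = 0.0732). NHX1, a vacuolar exchanger, was at 0.30 ± 0.11 and not called, and NHX3 rose by 0.27 ± 0.061. SOS3, the calcium sensor of the SOS pathway, fell (-0.45 ± 0.12, adjusted p = 0.0195), a call lost without wild type replicate 2 or SvGRP replicate 1 or 2 (differences from -0.38 to -0.36).

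HAK5, a potassium uptake transporter raised by low potassium, had the largest change among 23 ion transport genes. It read -1.28, -1.27 and -1.23 in wild type and -4.06, -4.50 and -3.46 in SvGRP. The groups were over 2 log2 units apart (-2.75 ± 0.25, adjusted p = 0.000101), and the value with slide was -2.59 (adjusted p = 0.0642). Without salt HAK5 differed by -3.67. In all 2 of these genes rose and 5 fell, beside 10.2% and 18.7% of all genes. Under E1A scaling 4 rose and 1 fell, and without wild type replicate 2 or SvGRP replicate 2 there were 2 falls.

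Of 19 iron genes 7 fell and none rose, beside 18.7% and 10.2% of all genes. Under E1A scaling 1 fell, beside 1789 of all 26794 genes. FER3, a ferritin that stores iron in plastids, read 0.82, 1.08 and 1.08 in wild type and 0.019, 0.29 and 0.53 in SvGRP (-0.71 ± 0.16, adjusted p = 0.00997), with each SvGRP array below the wild type. FIT1, the regulator of root iron uptake, fell (-0.69 ± 0.18, adjusted p = 0.0196; lost without wild type replicate 2 (difference -0.64)), as did NAS2, a nicotianamine synthase (-1.22 ± 0.39, adjusted p = 0.0411; lost without wild type replicate 2 or 3 or SvGRP replicate 1 or 2 (differences from -1.31 to -0.95)). IRT1, the iron transporter under FIT1, was below the 20th percentile in both genotypes, and FRO2 was at 0.12, not called. Without wild type replicate 2 the list had 3 falls.

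In nitrogen assimilation 5 of 16 genes fell and 2 rose. NIA1, a nitrate reductase, read 1.97, 2.0 and 1.93 in wild type and 1.38, 1.1 and 1.55 in SvGRP (-0.63 ± 0.11, adjusted p = 0.00371), while without salt it differed by 0.013. GDH2, a glutamate dehydrogenase, fell (-0.48 ± 0.094). The nitrate transporter gene NRT2:1 was at -0.76 ± 0.22, a call lost without wild type replicate 1 or 2 or SvGRP replicate 2 or 3 (differences from -0.80 to -0.61), and at 0.029 with slide. GLU1, a glutamate synthase, rose by its brightest probe (0.42 ± 0.084, adjusted p = 0.00572) and was near 0 (-0.00015) with all its probes averaged. ASN2, an asparagine synthetase, was at 0.31 ± 0.092, and its call was lost without wild type replicate 3 or SvGRP replicate 1 or 2 (differences from 0.21 to 0.33). Under E1A scaling 1 nitrogen gene fell.

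Of 16 sulfur and phosphate starvation genes 4 fell and 1 rose, beside 18.7% and 10.2% of all genes. MGD3 and MGD2, galactolipid synthases of phosphate shortage, fell (-2.59 ± 0.50, adjusted p = 0.0046, and -1.0 ± 0.24, adjusted p = 0.0127). MGD3 read -1.50, -3.47 and -3.39 in wild type and -5.78, -5.17 and -5.17 in SvGRP, and wild type replicate 1 stood above its group. BGLU28, a beta-glucosidase of sulfur shortage, was at -2.08 ± 0.54, with a call lost without wild type replicate 1 or 2 (differences from -1.91 to -1.88) and a value of -1.09 with slide. APR2, which reduces sulfate, rose by 0.43 ± 0.11.

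Of 11 aquaporin genes 3 fell and 2 rose. GAMMA-TIP, a water channel of the vacuole, read 5.09, 4.91 and 4.96 in wild type and 3.81, 3.91 and 4.05 in SvGRP. The gap was about 1 log2 unit on an abundant transcript (-1.06 ± 0.068, adjusted p = 2.02e-05; -1.08 with slide, adjusted p = 0.0165). Without salt the difference was -0.24. TIP2, another vacuolar channel, fell (-0.52 ± 0.082) and PIP1A, of the plasma membrane, rose (0.37 ± 0.079). PIP2E and PIP1C were at 0.24 ± 0.072 and -0.17 ± 0.058, PIP1C was near 0 (0.0034) under E1A scaling, and their calls were lost without wild type replicate 2 or 3 or SvGRP replicate 1, 2 or 3 (differences from 0.21 to 0.27) for PIP2E and without wild type replicate 1, 2 or 3 or SvGRP replicate 2 or 3 (differences from -0.20 to -0.11) for PIP1C.

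Among 19 genes against reactive oxygen 4 fell and 2 rose, beside 18.7% and 10.2% of all genes. CSD2, a copper and zinc superoxide dismutase, rose (1.17, 1.18 and 1.19 against 2.19, 1.82 and 1.85, 0.77 ± 0.15, adjusted p = 0.00543), and FSD2, an iron superoxide dismutase of plastids, fell (0.16, 0.12 and 0.28 against -0.43, -0.23 and -0.41, -0.54 ± 0.073, adjusted p = 0.000808). CAT2 and CAT3, catalases, moved in opposite directions (0.32 ± 0.067 and -0.38 ± 0.068). CAT1 was at -0.30 ± 0.08 by its brightest probe, at 0.089 with all its probes averaged, and its call was lost without wild type replicate 1 or SvGRP replicate 3 (differences from -0.26 to -0.23). Without wild type replicate 1 or SvGRP replicate 3 there were 2 falls, and under E1A scaling 5 genes rose and 1 fell.

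Of 27 heat shock genes tested under salt 3 rose and 1 fell, beside 28.9% called over all genes, and 5 rose and 0 fell after median scaling. The list median was 0.16, whereas at 0 mM 11 were lower in SvGRP and 0 higher, beside 10.8% and 10.4% of all genes. HSP70, a cytosolic chaperone, read 3.42, 3.65 and 3.16 in wild type and 3.86, 3.96 and 4.34 in SvGRP at 150 mM (0.65 ± 0.16, adjusted p = 0.0149). Without salt it lay the other way (-0.72), and the change was called (1.37, adjusted p = 0.0107). HSFA2, a heat shock factor, and HSP90.1 were at 0.30 and 0.03 under salt, not called, and at -1.18 and -1.31 without it. HSFB2B was at 0.48 ± 0.13 with a call lost without wild type replicate 1 or 3 (differences from 0.46 to 0.48). ROF1, a co-chaperone, was at 0.23 ± 0.074, lost without wild type replicate 1 or 2 or SvGRP replicate 1 or 3 (differences from 0.18 to 0.25), and HSFB1, a repressor, at -0.29 ± 0.086, lost without wild type replicate 2 or 3 or SvGRP replicate 1 or 2 (differences from -0.30 to -0.22).

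Of 10 genes of protein folding in the endoplasmic reticulum 6 fell and none rose, while 2 rose after quantile normalization, and under E1A scaling 0 fell and 1 rose. CRT1A, a calreticulin, fell on all arrays (2.66, 2.67 and 2.90 against 2.3, 2.32 and 2.31, -0.44 ± 0.064, adjusted p = 0.00119). The chaperone BIP2 and the isomerase PDIL1-1 fell too (-0.41 ± 0.097 and -0.41 ± 0.081). BIP3, which rises with unfolded protein, and the factor gene BZIP60 were not called (1.1 and 0.23).

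In flavonoid synthesis 6 of 23 genes fell and none rose, beside 18.7% and 10.2% of all genes. FLS1, which makes flavonols, read 0.78, 1.09 and 0.76 in wild type and 0.024, -0.28 and -0.06 in SvGRP. The SvGRP arrays were all near 0 or below and the wild type near 1 (-0.98 ± 0.15, adjusted p = 0.00172). TT7, a flavonoid hydroxylase, fell (-1.11, -0.36 and -0.73 against -2.2, -1.80 and -1.86, -1.22 ± 0.24, adjusted p = 0.00525), and so did MYB111, a regulator of flavonols (-3.94, -4.42 and -4.50 against -5.11, -5.14 and -5.34, -0.91 ± 0.15, adjusted p = 0.00241; -1.03 with slide, adjusted p = 0.0497). The late anthocyanin genes DFR and LDOX were not called under salt (-0.47 and -0.21), where without salt they lay higher in SvGRP (1.18 and 1.47). The change with salt was called for both (-1.64, adjusted p = 0.0122, and -1.68, adjusted p = 0.00644) and for 6 genes of the list, all downward, and for 2 with slide.

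Of 19 ethylene genes 4 fell and none rose, beside 18.7% and 10.2% of all genes, and under E1A scaling 2 fell. ACO1, which makes ethylene, read -3.07, -2.98 and -2.88 in wild type and -4.20, -4.08 and -4.04 in SvGRP (-1.13 ± 0.22, adjusted p = 0.00451). ERF104, an ethylene response factor, read 0.93, 0.70 and 1.08 and 0.27, 0.091 and 0.15 (-0.74 ± 0.10, adjusted p = 0.000849), and without salt it was far lower in SvGRP (-3.01). EFE, another enzyme of the last step, was at -0.51 ± 0.16, and its call was lost without wild type replicate 1, 2 or 3 or SvGRP replicate 2 or 3 (differences from -0.54 to -0.35). None of the 16 fast stress genes of the ZAT and WRKY families was called under salt by limma, though 1 rose after median or E1A scaling, and ZAT10 and WRKY40, at 0.38 and 0.26, had stood at -1.64 and -1.98 without it.

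Among 21 genes of salicylic acid 7 fell and none rose. WRKY70, a factor between salicylic acid and jasmonate, read -0.039, -0.17 and -0.22 in wild type and -0.98, -1.23 and -1.1 in SvGRP, about 1 log2 unit apart (-0.96 ± 0.11, adjusted p = 0.000381). WRKY54, its relative, read -5.56, -5.52 and -5.35 and -6.68, -6.72 and -6.75 (-1.24 ± 0.092, adjusted p = 3.91e-05; -1.22 with slide, adjusted p = 0.0345). Both lay lower still without salt, at -3.60 and -2.18. ICS1, the synthase of salicylic acid, was at 0.34 and not called. Without wild type replicate 2 or SvGRP replicate 2 the list had 4 falls, and under E1A scaling 5 fell and 2 rose.

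Of 14 auxin response genes tested under salt 8 rose and none fell, with a median of 0.56, and at 0 mM none was called. The change of the difference with salt was called for 1 of the 14, and not for IAA5 (adjusted p = 0.111) or IAA29 (adjusted p = 0.148), so a dependence on salt was not shown for the other 13. IAA5, an early auxin repressor, read -3.99, -3.94 and -4.08 in wild type and -2.52, -3.18 and -1.95 in SvGRP. All 3 SvGRP arrays were more than 0.6 log2 units above the highest wild type (1.46 ± 0.27, adjusted p = 0.00381). IAA29 read -3.01, -2.83 and -2.78 and -0.40, -2.06 and -1.76, with SvGRP replicate 1 the highest (1.46 ± 0.34, adjusted p = 0.0105). IAA1, IAA2, IAA3 and GH3.5, which conjugates auxin, rose by 0.71 ± 0.16, 0.60 ± 0.064, 0.59 ± 0.13 and 0.49 ± 0.092. IAA19 and the auxin carrier gene PIN3 were at 0.65 ± 0.17 and 0.45 ± 0.12, and lost their calls without wild type replicate 1 or 2 or SvGRP replicate 1 or 3 (differences from 0.52 to 0.65) for IAA19 and without wild type replicate 1 or 2 or SvGRP replicate 2 (differences from 0.40 to 0.45) for PIN3. With slide none of the list was called.

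Of 17 gibberellin and cytokinin genes 5 fell and 2 rose. ARR3, a cytokinin response regulator, read -4.86, -4.20 and -4.68 in wild type and -5.75, -6.60 and -5.75 in SvGRP (-1.45 ± 0.23, adjusted p = 0.00197), and without salt differed by -0.11. RR16, another such regulator, fell (-0.73 ± 0.13). GA3OX1, which activates gibberellin, rose (0.82 ± 0.18, adjusted p = 0.00877) while GA20OX3, an earlier step, fell (-0.81 ± 0.18, adjusted p = 0.00974). GA20OX2 was at 0.43 ± 0.11, with a call lost without wild type replicate 1 or 2 or SvGRP replicate 3 (differences from 0.39 to 0.43). Under E1A scaling 3 of these genes rose and 2 fell, and 5 rose after quantile normalization.

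Expansins and xyloglucan hydrolases loosen and remodel the wall. Of 22 expansin and xyloglucan hydrolase genes 5 fell and none rose, beside 18.7% and 10.2% of all genes. Under E1A scaling 2 fell and 1 rose. XTH9 read 2.75, 2.97 and 3.28 in wild type and 2.39, 2.26 and 1.84 in SvGRP (-0.83 ± 0.16, adjusted p = 0.00416), and XTH5 fell as well (-0.77 ± 0.10, adjusted p = 0.000856). TCH4, a touch-raised hydrolase, was at -0.58 ± 0.19, with a call lost without wild type replicate 1 or 3 or SvGRP replicate 1, 2 or 3 (differences from -0.66 to -0.43) and a value of 0.026 with slide. Of 12 cell division genes 2 fell, beside 18.7% of all genes: KN, a syntaxin of cell plates (0.56, 0.66 and 0.85 against 0.026, 0.0076 and -0.038, -0.69 ± 0.078, adjusted p = 0.000343), and CYCB1;2, a mitotic cyclin (-1.34, -1.21 and -1.14 against -1.76, -1.87 and -1.93, -0.62 ± 0.076, adjusted p = 0.000538). Both kept their calls with slide (-0.81 and -0.81) and lay near 0 without salt (-0.091 and 0.094). The replication genes of that list, PCNA and MCM, were not called, from -0.33 for PCNA2 to 0.064 for MCM3.

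Of 12 wax synthesis genes tested 8 rose and none fell, with a median of 0.49. WSD1, a wax ester synthase, read -4.98, -5.62 and -5.31 in wild type and -4.36, -2.62 and -2.45 in SvGRP. SvGRP replicate 1 lay closest to the wild type (2.16 ± 0.43, adjusted p = 0.00562). MYB96 and MYB94, which activate wax synthesis, rose on every array (0.46, 0.22 and 0.33 against 0.59, 0.99 and 1.12, 0.56 ± 0.12, adjusted p = 0.00707, and -0.87, -0.99 and -1.11 against -0.60, -0.45 and -0.29, 0.54 ± 0.084, adjusted p = 0.00168). CER2, KCS1 and KCR1, of fatty acid elongation, rose by 0.55 ± 0.097, 0.47 ± 0.11 and 0.26 ± 0.047. MAH1 and CER3, of the alkane branch of wax synthesis, were at 1.3 ± 0.38 and 0.52 ± 0.14. The call on MAH1 was lost without wild type replicate 1, 2 or 3 or SvGRP replicate 2 or 3 (differences from 1.15 to 1.33). That on CER3 was lost without wild type replicate 2 or SvGRP replicate 2 or 3 (differences from 0.38 to 0.49). At 0 mM 3 of the 12 rose, and with slide none was called at 150 mM.

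Of 17 glutathione transferase genes 3 rose and 1 fell, beside 10.2% and 18.7% of all genes. GSTU20, which acts beside glucosinolate synthesis, read 3.82, 3.68 and 3.75 in wild type and 1.79, 2.25 and 2.43 in SvGRP, with no overlap (-1.59 ± 0.16, adjusted p = 0.000189). GSTU17, a stress-raised member, rose (1.64, 1.25 and 1.34 against 1.75, 2.42 and 2.31, 0.75 ± 0.17, adjusted p = 0.0104), and GSTU2 too (0.40 ± 0.093). GSTU19 was at 0.23 ± 0.073, a call lost without wild type replicate 2 or 3 or SvGRP replicate 1 or 3 (differences from 0.17 to 0.24). These genes lie in clusters of close relatives, so hybridization could be shared.

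Of 28 light-harvesting and photosystem genes 1 was called under salt, LHCB2.1 (1.1, 0.99 and 1.23 against 2.22, 1.85 and 1.66, 0.80 ± 0.16, adjusted p = 0.00528), and the list median was -0.02. Its close relative LHCB2.2 was at -0.045, not called. At 0 mM 12 of the 28 were lower in SvGRP, beside 10.8% of all genes. Of 12 Calvin cycle genes FBA1, an aldolase, rose (0.36 ± 0.08, adjusted p = 0.00897) and PGK1, a phosphoglycerate kinase, fell (-0.31 ± 0.084, adjusted p = 0.0206; lost without wild type replicate 1 or 2 or SvGRP replicate 2 or 3 (differences from -0.32 to -0.27)). The 8 genes often used as references, ACT2 and UBQ10 among them, lay between -0.17 and 0.10 and none was called, though 2 rose after median scaling.

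**Figure D5:**
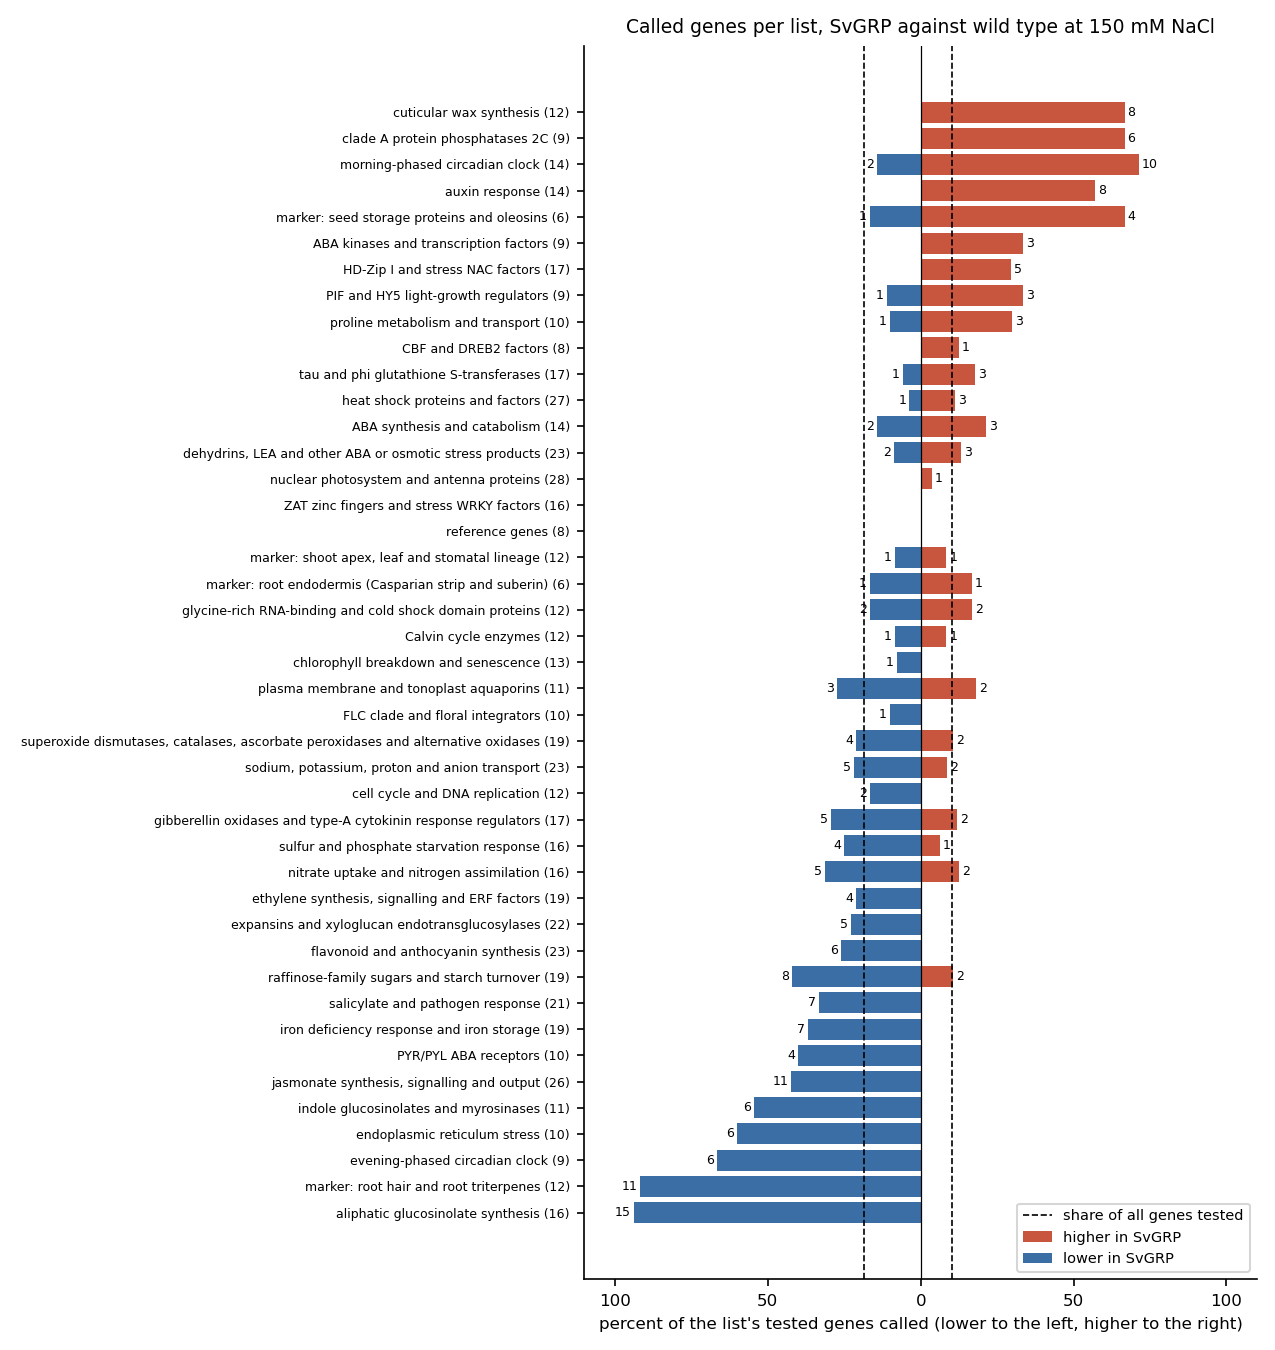
For each of the 43 gene lists the bars give the percent of its tested genes that were higher (right, red) or lower (left, blue) in SvGRP at 150 mM NaCl, with the number of genes at the bar ends; dashed lines mark the share of all genes, 10.2% higher and 18.7% lower. Aliphatic glucosinolate genes (15 of 16) and root hair markers (11 of 12) have the longest bars to the left. Morning clock genes (10 of 14), phosphatases (6 of 9, with AHG1, whose call is not read) and wax genes (8 of 12) have long bars to the right.

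The differences under salt were in part also found between the genotypes without salt. At 0 mM NaCl 5686 genes were called between the genotypes (21.2%), 2798 higher (10.4%) and 2888 lower (10.8%) in SvGRP, and 989 differed at least 2-fold (3.69%). The comparisons at 150 mM and 0 mM share no arrays, but they share the estimate of each gene's spread. In neither did a slide hold both genotypes, and the part of slide in their overlap was not tested. Of the genes called at 150 mM 2554 were also called at 0 mM, which is 33.0% of the first list and 44.9% of the second. Of these, 947 were higher and 1439 lower in SvGRP at both NaCl levels, and 168 changed direction. The difference between the differences was called for 2402 genes (8.96%), of which 675 moved up (2.52%) and 1727 down (6.45%) in SvGRP relative to wild type. Of the 5193 genes called at 150 mM alone, 1313 had such a called change, so for the other genes of that list a difference between the NaCl levels was not shown. With slide in the fit 244 genes were called at 0 mM and 138 had a called change. The count at 0 mM lay between 3125 and 3593 without wild type replicate 3 or SvGRP replicate 1, 2 or 3 of that group, and was 16587 under E1A scaling. The count of called changes lay between 851 and 1472 without wild type replicate 2 or 3 or SvGRP replicate 1 or 2 at 0 mM or without replicate 2 of either genotype at 150 mM, and was 3655 without SvGRP replicate 1 at 150 mM.

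Of the aliphatic glucosinolate genes 15 of 16 fell at 150 mM and 13 at 0 mM, with a median at 0 mM of -0.82, and the change with salt was called, downward, for 6, MAM1 among them (-1.59, adjusted p = 0.0475), and for none with slide. Of the jasmonate genes 6 were lower at 0 mM, and 3 had a called change. The phosphatases were not called at 0 mM and had 0 called changes, so their salt dependence was not shown. The dehydrin and LEA genes were lower in SvGRP at 0 mM (8 of 23, with none higher), and 5 had a called upward change, RD29A among them (-0.57 at 0 mM, change 1.22, adjusted p = 0.0492), with 2 called with slide.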

How the data were processed

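RNA of whole seedlings was labelled with Cy3 after low-input linear amplification and hybridized to 12 one-colour Agilent arrays, per the labels' protocols. The signal was read with Agilent Feature Extraction, per the submitters' processing notes, and the deposited intensity is its processed signal on a linear scale, with no background columns or quality marks in the files used here. Log2 values stand in the series table the authors deposited; set against the scanner intensities they proved to be scaled to the 75th percentile and centred per probe, and they served as an alternative. From each array's intensity, log2 values minus the log2 of the 75th percentile over the 43603 probes other than controls were computed, so a shift of most transcripts would be taken out by the scaling.

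Probes were named through GEO's platform annotation, with symbols from a RefSeq gene table of assembly TAIR10.1 (32265 matched by accession, 1319 by locus tag, 715 by symbol, and 9259 not listed). Of several probes for 1 gene, that with the highest mean was used. Genes were kept when above the 20th percentile of the array on all arrays of at least 1 group, which left 26794 genes or unnamed probes, 20917 of them named and 8137 with a symbol. Differences were fitted with limma 3.58.1 in R 4.3.3 as 4 group means over 12 arrays, with empirical Bayes variances (8 residual degrees of freedom). P-values were adjusted by Benjamini-Hochberg over all 26794, and an adjusted p under 0.05 was called. The fit was also run on simulated data with known changes. These had no slide effect and the same spread in every group, so they cannot speak to slide or to unequal spread. A difference on the log2 scale is relative to the scaling, and a bound for a dim group used the 20th percentile of its arrays.

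Genes were named by rule: the 12 largest rises and 12 largest falls among called genes with a symbol and no overlap between the groups, up to 3 called members per list and direction (all called members for lists of up to 15 genes), and always GRP7, GRP8, RD29A, RD29B, RAB18, P5CS1, NCED3, SOS1, HKT1, CCA1, LHY and TOC1. The 43 gene lists (637 of 707 members tested) and the genes compared were chosen with earlier results of these data known. Replicate numbers did not pair the arrays: arrays at 150 mM with the same number deviated with correlations of -0.18, -0.086 and -0.18. Alternatives changed the scaling, the filter, the probe rule, the variance model, the blocks and the arrays used.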

Additional observations from a re-analysis of the deposited data

Results flagged for a closer look

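The genotype difference under salt differed from that without salt for 32 of the named genes, by the interaction term of the limma fit over all genes. The value given for each is the difference at 150 mM minus the difference at 0 mM (log2), with its adjusted p. With slide in the fit 6 of them were still called: SESA5, COR27, KIN2, GAMMA-TIP, ERF104 and WRKY70.

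One group lay lower in SvGRP at both NaCl levels, but less so under salt. For WRKY70 the change was 2.64 (adjusted p = 0.000324), for ERF104 2.28 (adjusted p = 0.000324), for COR27 2.00 (adjusted p = 0.000494), for AT4G33980 1.40 (adjusted p = 0.00624), for WRKY54 0.93 (adjusted p = 0.00626), for KIN2, a cold-raised protein, 0.90 (adjusted p = 0.00214) and for TCH4 1.16 (adjusted p = 0.0331). PCC1 had the largest change of the 32, at 5.62 (adjusted p = 0.0264), and its arrays at 150 mM had SDs of 1.55 in wild type and 1.71 in SvGRP.

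A second group lay lower in SvGRP at both levels and more so under salt. The glucosinolate genes BCAT4 and MAM1 changed by -1.68 (adjusted p = 0.0198) and -1.59 (adjusted p = 0.0475), the myrosinase gene TGG2 by -0.55 (adjusted p = 0.0192), MBP1 by -2.23 (adjusted p = 0.0403), GSTU20 by -0.90 (adjusted p = 0.0386) and the jasmonate-raised gene VSP2 by -1.07 (adjusted p = 0.0437). GAMMA-TIP, the vacuolar water channel, changed by -0.83 (adjusted p = 0.0034).

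Other genes were lower in SvGRP under salt and lay between -0.29 and 0.32 without it. The root hair genes EXPA18 and PRP3 changed by -2.81 (adjusted p = 0.0435) and -3.24 (adjusted p = 0.0499). CLH1 changed by -1.88 (adjusted p = 0.0253), DIN10 by -1.14 (adjusted p = 0.00809), the cytokinin regulator ARR3 by -1.34 (adjusted p = 0.0368), and the division genes KN and CYCB1;2 by -0.60 (adjusted p = 0.0144) and -0.72 (adjusted p = 0.00766). NIA1 changed by -0.64 (adjusted p = 0.0409), GDH2 by -0.59 (adjusted p = 0.0283) and PYL8 by -0.45 (adjusted p = 0.0485).

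For the rest the difference moved upward with salt. HSP70 and RD29A went from below to above the wild type, with changes of 1.37 (adjusted p = 0.0107) and 1.22 (adjusted p = 0.0492), although RD29A was not called at 150 mM itself. SESA5 changed by 2.24 (adjusted p = 0.00486), with wild type values below the 20th percentile, so the size of this change is not a bound. It was kept for testing only through SvGRP at 150 mM, so nothing is read from its call, with or without slide. CBF2 changed by 0.75 (adjusted p = 0.0341), ABF2 by 0.65 (adjusted p = 0.0498), GR-RBP2 by 0.48 (adjusted p = 0.0341) and PIP2E by 0.44 (adjusted p = 0.0309).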

How the results depend on the processing

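The 7747 genes called at 150 mM, the 5686 at 0 mM and the 2402 whose difference changed with salt became 239, 244 and 138 with slide as a fixed term and 11979, 10264 and 7384 with slide as a random block, whose estimated correlation was below 0 (-0.165). Asking for a 2-fold difference as well left 1208, 989 and 880. The E1A spike-in scaling gave 16587 at 0 mM, and a fit on the groups compared alone gave 3757 at 150 mM. Leaving out 1 array in turn gave 5179 to 8416 at 150 mM, 3125 to 4029 at 0 mM and 851 to 3655 for the change with salt. The numbers did not pair the arrays, and the fit with the replicate block called 6209, 4209 and 1215. Of the 153 named genes called at 150 mM, 26 kept the call with slide, 93 with the groups compared alone, 123 under E1A scaling and 133 with the replicate block. Directions turned for PIP1C under E1A scaling (0.0034), for SOS1, NRT2:1 and TCH4 with slide (-0.00028, 0.029 and 0.026), and for JAL23, GLU1 and CAT1 with a gene's probes averaged (0.46, -0.00015 and 0.089); the cause was not tested. Quantile normalization, median scaling, the deposited series table, both other filters, averaged probes and a trended variance kept each of the 3 counts within 1.5 times. Normexp background correction was not run, since the background columns are not in the files used here. Signals below the 20th percentile of their arrays, and 3 arrays per group, limit what can be said of dim genes.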
